A study of Homo sapiens with 8 samples.

Results

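The subject of this report is a set of 10 genes of the vascular endothelial growth factor (VEGF) family and other angiogenic factors, VEGFA, VEGFB, VEGFC, PGF, FLT1, KDR, ANGPT1, ANGPT2, ANGPTL4 and ADM, out of 26364 genes in a count table of human LN229 glioblastoma cells. The 10 were chosen by gene symbol from a list drawn up with earlier results of these data known, so their calls are given as a description beside the share of all genes called. Tumour cells secrete VEGF family ligands that act on receptor tyrosine kinases of endothelial cells, where VEGFA binding to KDR drives sprouting and permeability and FLT1 takes up ligand with high affinity. ANGPT1 and ANGPT2 act on the receptor TEK, which keeps vessels quiescent or loosens them, while ANGPTL4 and adrenomedullin (ADM) are secreted factors known for their response to low oxygen. Glioblastoma is known for dense, leaky vessels and for high VEGFA around its necrotic areas.

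Both clones studied carry a pcDNA3.1 plasmid for the apoptosis inhibitor and chromosomal passenger Survivin (BIRC5) fused to eGFP, kept under G418. Surv-GFP (clone D6) holds wild-type Survivin, described as mostly cytoplasmic, and SurvNESmut-GFP (clone L2) holds the L96A and L98A changes in the nuclear export sequence (NES), which keep the fusion protein in the nucleus. Cells of either clone grew without drug (untreated) or with 50 µM temozolomide (TMZ), an alkylating drug dissolved in DMSO, for 48 h, and each of the 4 groups has 2 libraries (a and b). The study asked how the place of Survivin in the cell changes the TMZ response. It also reports that the wild-type fusion protein accumulated in the nucleus after 50 µM TMZ. Each genotype is 1 clone, so the NES mutation and any other property of a clone cannot be told apart, and the labels name the controls as untreated without mention of a solvent control. The study describes biological replicates run in technical duplicate and the labels do not say which of these a and b are, so the spread between them may be technical.

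Depth was even, with 15826923 to 18861603 reads counted on genes per library. Replicate libraries differed by more than counting noise and correlated at r of at least 0.9939 across genes. Of the 8 glioblastoma and glial markers, VIM (vimentin, which many cell types express) was the highest at 2348 to 3783 CPM (reads per 1000000 gene reads), while the astrocyte marker GFAP had group means of 0.053 to 0.626 CPM. S100B had a mean of 777 CPM in untreated and 263 CPM in TMZ-exposed Surv-GFP and stood at 40.6 and 16.8 CPM in the matching SurvNESmut-GFP groups. The summed level of the 8 was 5972 to 6033 CPM in untreated and 3871 to 3957 CPM in TMZ-exposed Surv-GFP, and 4662 to 4858 and 4131 to 4269 CPM in SurvNESmut-GFP. Of the 10 endothelial markers, CLDN5 was at 0 in every library, ROBO4 had the highest mean over the 8 libraries (2.85 CPM, 0.497 to 6.24) although ESAM was above it in both Surv-GFP groups, and the summed level was 3.37 to 3.63 CPM in untreated and 4.38 to 4.82 CPM in TMZ-exposed Surv-GFP, 5.17 to 6.83 CPM in untreated and 9.83 to 11.4 CPM in TMZ-exposed SurvNESmut-GFP. The part of these markers in the results was not tested. BIRC5 itself, endogenous and plasmid reads together, had a mean of 1133 CPM in untreated and 1984 CPM in TMZ-exposed Surv-GFP and of 411 and 258 CPM in the matching SurvNESmut-GFP groups.

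Of the 10 genes, 8 passed the filter on low counts and were tested among 14201 genes. KDR and ANGPT2 were near 0. KDR, the main signalling receptor for VEGFA, had 4 and 0 counts in untreated Surv-GFP, 0 in both of its TMZ libraries, 0 and 1 in untreated SurvNESmut-GFP and 1 and 4 after TMZ, 10 counts in all 8 libraries together. The sum of 5 counts in TMZ-exposed SurvNESmut-GFP has an exact 95% Poisson interval of 0.0492 to 0.354 CPM, and the 0 in TMZ-exposed Surv-GFP an upper bound of 0.102 CPM, both for counting error only. ANGPT2, which competes with ANGPT1 for TEK, had 1 count in 1 untreated library of each clone and none in the other 6 libraries. At this depth no difference between groups could be shown for either gene.

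VEGFA rose with TMZ in both clones, and by more in the clone with wild-type Survivin. VEGFA, the ligand that drives endothelial sprouting, stood at 19.2 and 18.99 CPM in untreated Surv-GFP and at 217 and 209 CPM after TMZ. In SurvNESmut-GFP it stood at 50.8 and 48.7 CPM without and at 168 and 153 CPM with TMZ. No groups overlapped, and the order from low to high was untreated Surv-GFP, untreated SurvNESmut-GFP, TMZ-exposed SurvNESmut-GFP and TMZ-exposed Surv-GFP. The rise was 11.1-fold in Surv-GFP, a log2 fold change of 3.48 ± 0.06 (SE, adjusted p = 3.4e-16, edgeR quasi-likelihood test with Benjamini-Hochberg adjustment over all tested genes), which ranked 80th among rising genes. In SurvNESmut-GFP it was 3.23-fold, a log2 fold change of 1.69 ± 0.06 (edgeR adjusted p = 3.1e-12). The rise was smaller in the mutant clone by 1.79 ± 0.09 on the log2 scale (edgeR adjusted p = 3.8e-10). Without TMZ the mutant clone held 2.60 times the VEGFA of the wild-type clone (edgeR adjusted p = 5.2e-11), and with TMZ this order was turned, with Surv-GFP 1.33-fold higher (edgeR adjusted p = 2.6e-06). In these bulk libraries, fewer expressing cells and less RNA per cell cannot be told apart.

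**Figure D1:**
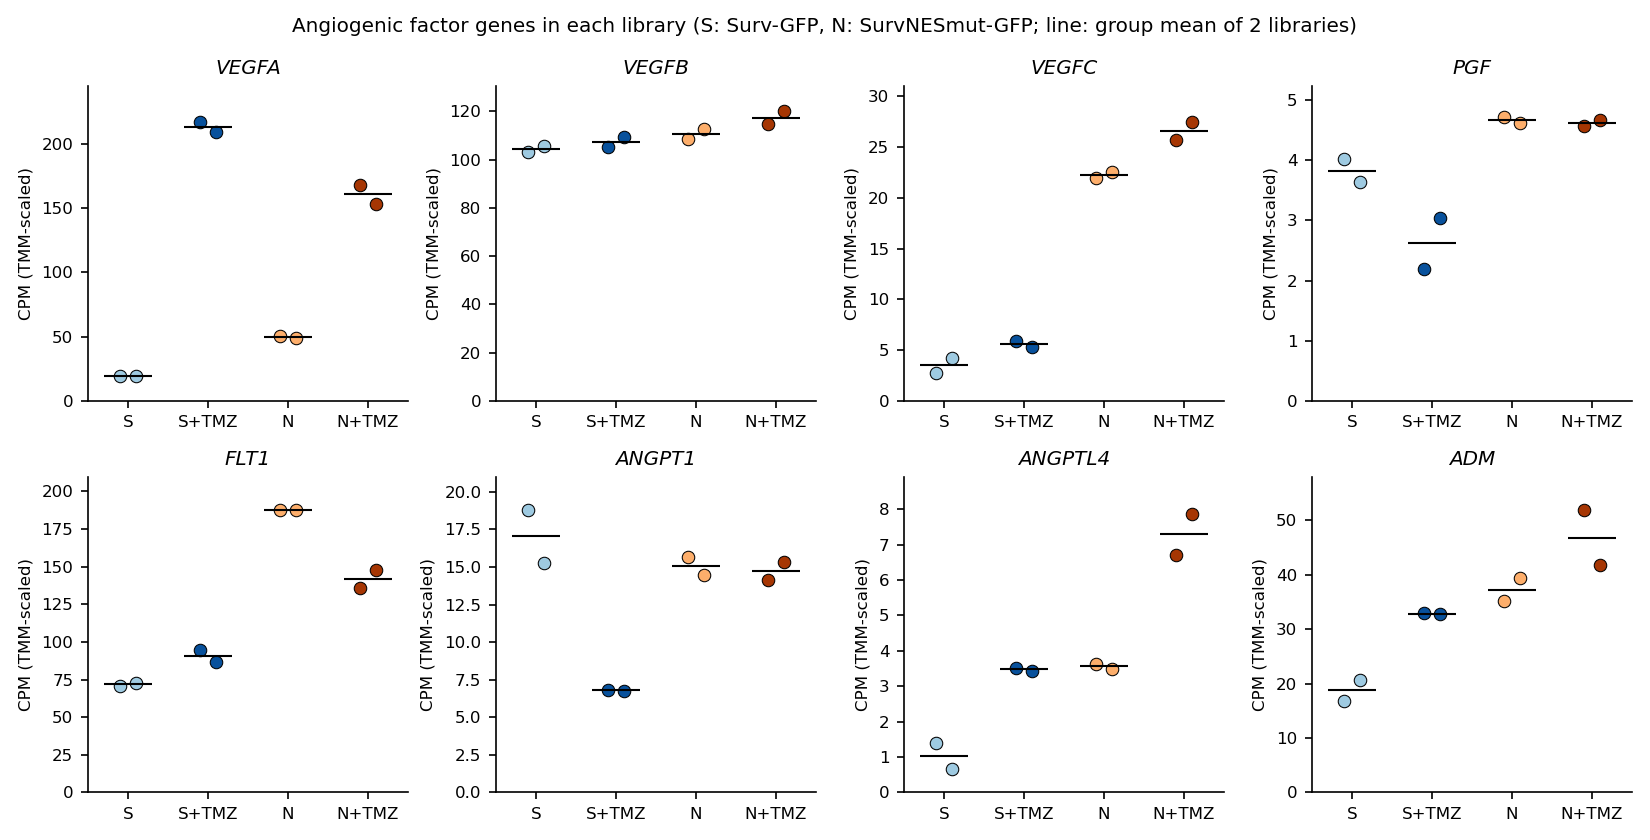
Level of the 8 tested genes in each library, in CPM scaled by trimmed mean of M values (TMM), with a point per library and a line at the mean of the 2 libraries of a group. VEGFA goes from 19.1 to 213 CPM in Surv-GFP and from 49.8 to 160.5 CPM in SurvNESmut-GFP, while VEGFB stays between 103 and 119.95 CPM.

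Among the other ligands, VEGFB was level, VEGFC differed more between the clones than with TMZ, and PGF was low throughout. VEGFB, a ligand of FLT1 linked to lipid uptake and cell survival more than to sprouting, lay between 103 and 119.95 CPM in all 8 libraries. Its TMZ effect was 0.04 ± 0.05 in Surv-GFP (edgeR adjusted p = 0.53) and 0.08 ± 0.05 in SurvNESmut-GFP (edgeR adjusted p = 0.2) on the log2 scale, and of the neighbouring groups only TMZ-exposed SurvNESmut-GFP lay clear of the rest. With TMZ it was 1.09-fold higher in the mutant clone (edgeR adjusted p = 0.03), a call lost under 7 of 17 other settings, such as leaving out library b of TMZ-exposed SurvNESmut-GFP, with which the log2 difference was 0.06 (edgeR adjusted p = 0.341).

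VEGFC, the lymphatic growth factor that acts on FLT4, stood at 2.76 and 4.25 CPM in untreated Surv-GFP and 5.88 and 5.28 CPM after TMZ. In SurvNESmut-GFP it was at 22.0 and 22.5 CPM without and 25.7 and 27.5 CPM with TMZ, so that every library of the mutant clone was above every library of the other. The clone difference was 6.34-fold without TMZ (edgeR adjusted p = 8.2e-11) and 4.75-fold with TMZ (edgeR adjusted p = 1.5e-10). Its rise with TMZ in Surv-GFP was 0.67 ± 0.18 on the log2 scale (edgeR adjusted p = 0.0042). This rise rested on which untreated library was used, with a log2 value of 0.40 without library a (edgeR adjusted p = 0.0886) and 1.02 without library b. In SurvNESmut-GFP the value was 0.26 ± 0.10 (edgeR adjusted p = 0.058), and the difference between the effects was -0.42 ± 0.21 (edgeR adjusted p = 0.13; -0.76 with adjusted p = 0.0192 without untreated Surv-GFP library b).

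PGF (placental growth factor), a further FLT1 ligand, was at 4.01 and 3.64 CPM in untreated Surv-GFP and at 2.19 and 3.04 CPM after TMZ. The mutant clone gave 4.72 and 4.61 CPM without and 4.56 and 4.66 CPM with TMZ, which overlap. The fall in Surv-GFP was -0.55 ± 0.20 on the log2 scale (edgeR adjusted p = 0.025), and this call did not hold without TMZ library a (-0.33, edgeR adjusted p = 0.252), without untreated library a (-0.48, edgeR adjusted p = 0.13) or with DESeq2 (adjusted p = 0.0935). Leaving out TMZ library b instead gave -0.83. With TMZ, PGF was 1.77-fold higher in the mutant clone (edgeR adjusted p = 0.0013).

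Set on a scale per transcript length, VEGFB was the highest of the 4 ligand genes in every library, and VEGFA came closest to it after TMZ. CPM was divided by the length of the longest coding transcript in the consensus coding sequence (CCDS) set of GENCODE 29, which is 3535 bases for VEGFA and 1380 for VEGFB. VEGFA then made up 6.26 and 6.51% of the summed ligand level in untreated Surv-GFP and 41.5 and 43.3% after TMZ. In SurvNESmut-GFP its share was 12.7 and 13.5% without and 29.7 and 32.6% with TMZ. VEGFC made up 1.60 to 2.40% of the sum in the Surv-GFP libraries and 8.55 to 10.0% in those of the mutant clone. The summed ligand level went from 83.6 and 85.8 to 142 and 142 CPM per kilobase with TMZ in Surv-GFP, and from 106 and 109 to 145 and 146 in SurvNESmut-GFP. Shares depend on the length used, because dividing by the merged exons of all transcripts (14431 bases for VEGFA) put VEGFA at 1.83 and 1.91% in untreated and 16.5 and 17.5% in TMZ-exposed Surv-GFP. In untreated SurvNESmut-GFP it put VEGFA at 4.21 and 3.91%, below VEGFC at 10.8 and 10.8%. With TMZ in that clone, VEGFA was at 11.9 and 10.6% and VEGFC at 10.9 and 11.3%, so their order rests on the length. Reads were not assigned to isoforms, so the splice forms of VEGFA and the secreted form of FLT1 were not told apart here.

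**Figure D2:**
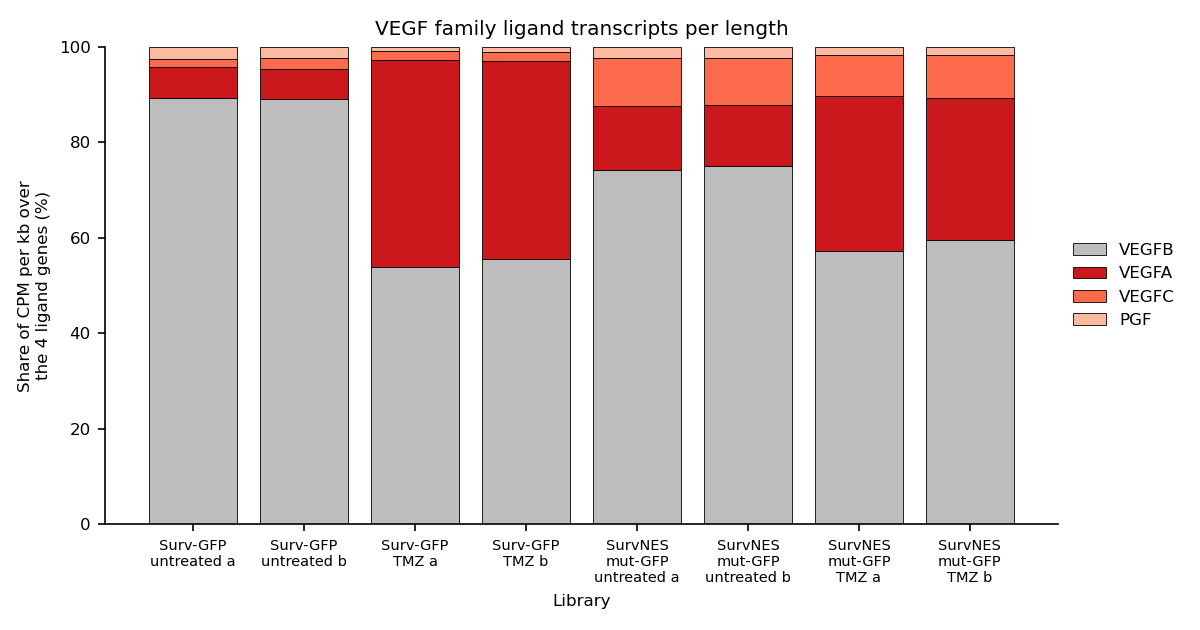
Share of the 4 VEGF family ligand genes in their summed level per transcript length, in percent, with a stacked bar per library. The length is that of the longest coding transcript, and with merged exons VEGFA lay below VEGFC in untreated SurvNESmut-GFP. VEGFA takes 6.26 and 6.51% of the bar in untreated Surv-GFP, 41.5 and 43.3% after TMZ, and 29.7 and 32.6% in TMZ-exposed SurvNESmut-GFP, and VEGFC takes 8.55 to 10.0% in the libraries of the mutant clone.

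FLT1, the high-affinity VEGF receptor whose secreted form traps ligand, moved in opposite directions in the 2 clones. It stood at 70.6 and 72.9 CPM in untreated Surv-GFP and at 94.5 and 86.6 CPM after TMZ, and in the mutant clone at 188 and 188 CPM without and 136 and 148 CPM with TMZ. The 4 groups did not overlap, and every mutant library was above every library of the other clone. FLT1 rose with TMZ in Surv-GFP by a log2 fold change of 0.34 ± 0.06 (edgeR adjusted p = 0.00012) and fell in SurvNESmut-GFP with -0.41 ± 0.05 (edgeR adjusted p = 2e-05), a difference of -0.74 ± 0.08 between the effects (edgeR adjusted p = 2.6e-06). The mutant clone held 2.62-fold more without TMZ (edgeR adjusted p = 3.1e-12) and 1.56-fold more with it (edgeR adjusted p = 3.4e-08). Per length, the ratio of VEGFA to FLT1 was 0.522 and 0.547 in untreated Surv-GFP and 0.520 and 0.543 in untreated SurvNESmut-GFP. After TMZ it was 4.60 and 4.84 in Surv-GFP and 2.09 and 2.47 in SurvNESmut-GFP, so the untreated clones overlapped in this ratio while differing in both genes. The size of the ratio rests on the lengths used, 3535 bases for VEGFA and 7092 for FLT1. Merged exons, at 14431 and 12567 bases, would lower it by the same factor in every library.

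ANGPT1, the ligand that activates TEK and stabilizes vessels, fell with TMZ in Surv-GFP. Its libraries stood at 18.8 and 15.3 CPM without and 6.84 and 6.77 CPM with TMZ there, and at 15.7 and 14.4 CPM without and 14.1 and 15.3 CPM with TMZ in SurvNESmut-GFP. Only TMZ-exposed Surv-GFP stood apart, and the other 3 groups overlapped. The fall was 2.50-fold, a log2 fold change of -1.32 ± 0.12 (edgeR adjusted p = 1.3e-07), against -0.03 ± 0.11 in the mutant clone (edgeR adjusted p = 0.84), and the effects differed by 1.29 ± 0.17 (edgeR adjusted p = 2.1e-05). With TMZ, ANGPT1 was 2.16-fold higher in the mutant clone (edgeR adjusted p = 1.1e-06). TEK, its receptor, did not pass the filter on low counts.

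ANGPTL4 and ADM rose with TMZ in both clones and were higher in the mutant clone at both conditions. ANGPTL4, a secreted inhibitor of lipoprotein lipase that also acts on vessel permeability, was at 1.41 and 0.662 CPM in untreated Surv-GFP and 3.53 and 3.44 CPM after TMZ. It was at 3.63 and 3.50 CPM in untreated and 6.72 and 7.88 CPM in TMZ-exposed SurvNESmut-GFP, so that TMZ-exposed Surv-GFP and the untreated mutant clone overlapped. The rise was 3.34-fold in Surv-GFP (log2 fold change 1.74 ± 0.27, edgeR adjusted p = 4.3e-05) and 2.04-fold in SurvNESmut-GFP (1.03 ± 0.19, edgeR adjusted p = 4e-04), and the difference of -0.71 ± 0.34 did not pass (edgeR adjusted p = 0.12). The lowest library, untreated Surv-GFP b, held 12 counts. Without the other untreated library (a), the log2 rise in Surv-GFP was 2.39, the difference between the effects was -1.36 (edgeR adjusted p = 0.0226) and the untreated clone difference was 2.42. Without library b the rise was 1.31 and the untreated clone difference 1.34.

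ADM, the precursor of a vasodilator peptide, was at 16.9 and 20.6 CPM in untreated and at 32.9 and 32.8 CPM in TMZ-exposed Surv-GFP. The mutant clone gave 35.2 and 39.4 CPM without and 51.8 and 41.8 CPM with TMZ, with no overlap between the 4 groups. ADM rose by 0.81 ± 0.11 on the log2 scale in Surv-GFP (edgeR adjusted p = 9.9e-06) and by 0.33 ± 0.10 in SurvNESmut-GFP (edgeR adjusted p = 0.014). The second value was 0.17 without TMZ-exposed SurvNESmut-GFP library a (edgeR adjusted p = 0.189) and 0.25 without untreated library a (edgeR adjusted p = 0.16). The effects differed by -0.48 ± 0.15 (edgeR adjusted p = 0.019), a call that was lost when any of 4 libraries was left out, with adjusted p from 0.052 to 0.124. Without TMZ the mutant clone held 3.42-fold more ANGPTL4 and 1.99-fold more ADM, and with TMZ 2.09-fold and 1.43-fold more, with edgeR adjusted p from 6.5e-07 to 0.00023.

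The promoters of ANGPTL4 and ADM are shown because, with VEGFA, these were the genes that rose in both clones, and all 3 are classic targets of hypoxia-inducible factors (HIF). RefSeq windows of 250 bases before the start (GRCh38.p14) matched 7 of the 10 genes, with no entry for VEGFA, ANGPT1 and ANGPT2. Capitals mark the HIF core ACGTG or GCGTG on either strand; on the gene's strand a core on the other strand reads as CACGT or CACGC, and ACGTG and CACGT can overlap. ANGPTL4 is shown at chr19:8363905-8364154 (plus strand), and ADM with 12 bases on each side of its core at chr11:10304960-10304988 (plus strand), which GENCODE 29 places in a first exon of one ADM transcript.
ANGPTL4: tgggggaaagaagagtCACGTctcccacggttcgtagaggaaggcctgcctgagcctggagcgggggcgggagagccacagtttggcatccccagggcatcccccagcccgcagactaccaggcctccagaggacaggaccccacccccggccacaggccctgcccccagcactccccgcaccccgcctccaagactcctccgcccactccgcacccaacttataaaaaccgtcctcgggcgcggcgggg
ADM: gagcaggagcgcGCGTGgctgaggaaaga
The ANGPTL4 window held 1 core, which is ACGTG on the other strand, and the ADM window held 1, GCGTG on the gene's strand. VEGFB, VEGFC and FLT1 also held 1 each, PGF and KDR held none, and 43.1% of 27305 promoters held at least 1. A match is a string of letters and says nothing of binding in these cells.

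Counted over the set, 5 of the 8 tested genes were called higher with TMZ in Surv-GFP and 2 lower, where 30.1% of all tested genes were called higher and 28.9% lower. In SurvNESmut-GFP 3 were called higher and 1 lower, beside 18.6% and 19.1% of all genes. For the difference between the TMZ effects, SurvNESmut-GFP minus Surv-GFP, 1 gene (ANGPT1) was called positive and 3 (VEGFA, FLT1 and ADM) negative, beside 16.6% and 20.2%. The sign is not the size of an effect. ANGPT1 was positive because it fell in Surv-GFP, with a log2 value of -0.03 in SurvNESmut-GFP. Between the untreated clones 5 were higher in SurvNESmut-GFP and 0 lower by edgeR, beside 34.7% and 29.4%. Of the 3 not called, ANGPT1 was lower at a log2 value of -0.32 (edgeR adjusted p = 0.0334) when library b of untreated Surv-GFP was left out. With TMZ 7 were higher in SurvNESmut-GFP and 1 (VEGFA) lower, beside 34.5% and 34.7%. The median log2 value of the 8 was 0.51 for TMZ in Surv-GFP, 0.17 for TMZ in SurvNESmut-GFP, -0.45 for the difference, 1.19 between the untreated and 0.73 between the TMZ-exposed clones, where the medians of all tested genes lay between -0.001 and 0.034. The comparisons share libraries, so their counts are not independent of each other.

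**Figure D3:**
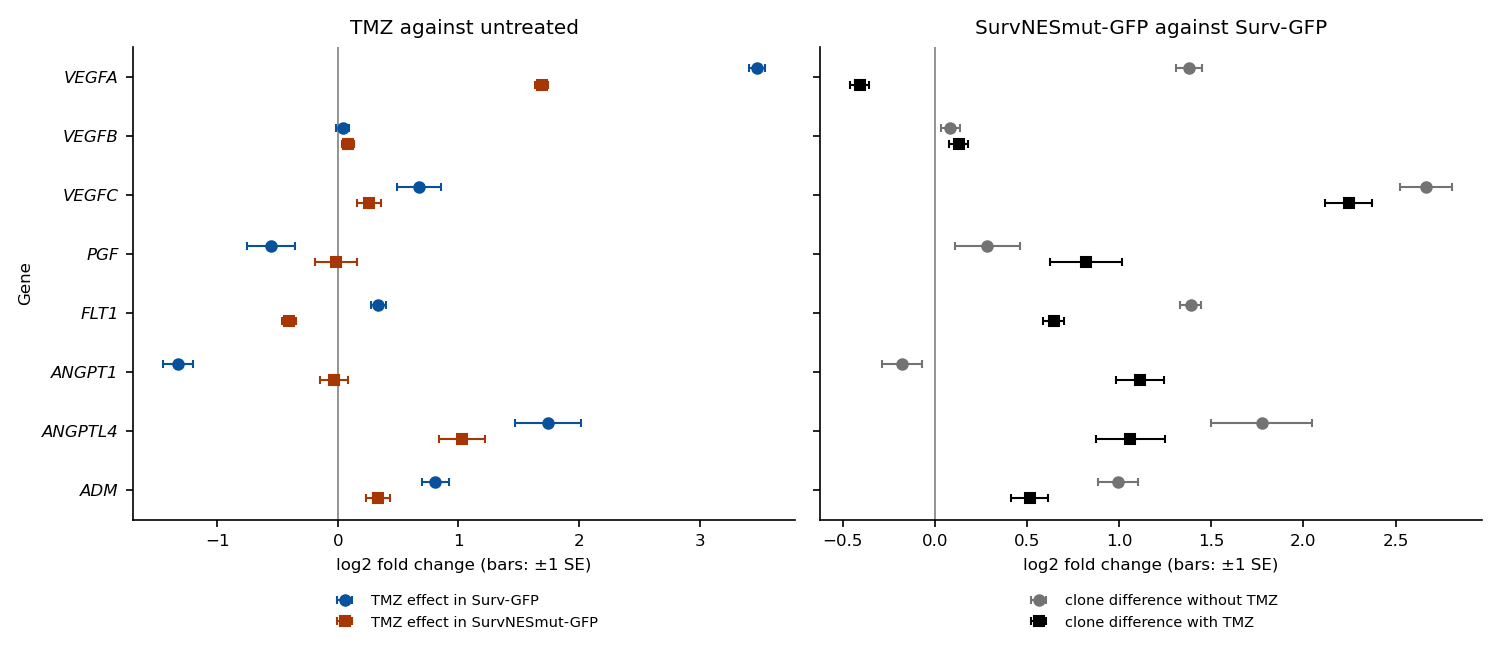
Log2 fold change of the 8 tested genes with 1 SE on each side, for TMZ against untreated in each clone (left) and for SurvNESmut-GFP against Surv-GFP without and with TMZ (right). VEGFA has the largest TMZ effects, 3.48 and 1.69, and its clone difference goes from 1.38 without TMZ to -0.41 with it.

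In a list of co-receptors and receptors, 8 of 11 genes were tested, of which 6 rose and 2 fell in Surv-GFP and 4 rose and 3 fell in SurvNESmut-GFP, beside 30.1% higher and 28.9% lower of all tested genes in Surv-GFP and 18.6% and 19.1% in SurvNESmut-GFP. NRP1, a co-receptor that presents VEGFA to KDR, rose in Surv-GFP by 0.77 ± 0.05 on the log2 scale, from 129 ± 8.40 to 221 ± 1.60 CPM (SD, n = 2), while the value in SurvNESmut-GFP was 0.05 ± 0.05. The heparan sulfate proteoglycans GPC1, SDC4 and SDC1, which hold VEGFA at the cell surface, rose in both clones, with 1.34, 0.93 and 0.79 in Surv-GFP and 0.68, 0.19 and 1.63 in SurvNESmut-GFP (log2). The SDC4 call in SurvNESmut-GFP was lost without untreated library a (0.13, edgeR adjusted p = 0.132). NRP2, also in this list, had group means of 52.0 to 96.7 CPM. It rose by 0.27 ± 0.07 in Surv-GFP and fell by -0.41 ± 0.08 in SurvNESmut-GFP. ITGAV and ITGB3 fell in both clones, by -0.35 and -0.38 in Surv-GFP and by -0.14 and -0.37 in SurvNESmut-GFP. FLT4, the receptor of VEGFC, had 0 counts in all libraries.

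Of 10 genes around the adrenomedullin receptor, 5 were tested. In Surv-GFP 1 rose and 3 fell, beside 30.1% higher and 28.9% lower of all tested genes. In SurvNESmut-GFP 1 rose and 1 fell, close to the 18.6% and 19.1% of all tested genes. RAMP2, which makes the receptor CALCRL an adrenomedullin receptor, fell in Surv-GFP by a log2 value of -0.60 ± 0.12 and CALCRL by -1.36 ± 0.38, where CALCRL was at 1.15 CPM untreated. Their values in SurvNESmut-GFP were 0.21 ± 0.15 and 0.30 ± 0.32, neither past the test, and RAMP2 was called at 0.43 (edgeR adjusted p = 0.0323) without TMZ-exposed SurvNESmut-GFP library a. RAMP1, which makes CALCRL a receptor for calcitonin gene-related peptide, fell in both clones, by -0.58 and -0.59. ADM2 (intermedin), a sister peptide of ADM, rose from 0.383 ± 0.082 to 16.6 ± 0.306 CPM in Surv-GFP (log2 fold change 5.41 ± 0.20). In SurvNESmut-GFP it rose from 4.34 ± 0.075 to 32.1 ± 1.94 CPM (2.89 ± 0.11). The lowest library held 6 counts of ADM2, so the log2 rise in Surv-GFP rests on a low start. Among 8 further angiopoietins and ANGPTL genes, 3 were tested. ANGPTL2, a secreted inflammatory factor, rose in both clones, by 1.03 and 1.40. ANGPTL1 had log2 values of -0.24 in Surv-GFP (edgeR adjusted p = 0.19) and -1.18 in SurvNESmut-GFP, where it fell. This call was lost without untreated library b (-1.13, edgeR adjusted p = 0.0698) or TMZ library a (-0.90, edgeR adjusted p = 0.151) of that clone. ANGPTL6 had 0.16 and 0.20, past the test in neither.

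Of 24 tested hypoxia-induced genes, 5 rose and 11 fell in Surv-GFP and 5 rose and 15 fell in SurvNESmut-GFP, with a median log2 fold change of -0.07 and -0.36. These are 20.8% higher and 45.8% lower in Surv-GFP, beside 30.1% and 28.9% of all tested genes, and 20.8% and 62.5% in SurvNESmut-GFP, beside 18.6% and 19.1%. LDHA (lactate dehydrogenase A) fell in both clones, by -0.85 ± 0.05 and -0.58 ± 0.05, and KDM3A (a histone demethylase) by -0.30 and -0.74. SLC2A1 (the glucose transporter GLUT1) rose by 0.77 ± 0.05 in Surv-GFP, with 0.04 ± 0.05 in SurvNESmut-GFP, and PFKFB4 (a regulator of glycolysis) rose in both, by 1.41 and 0.39. Among 18 tested genes of the HIF pathway and other upstream regulators, 9 rose and 4 fell in Surv-GFP and 7 rose and 3 fell in SurvNESmut-GFP, which is 50.0% and 22.2% of them in Surv-GFP and 38.9% and 16.7% in SurvNESmut-GFP. HIF1A, an oxygen-regulated HIF subunit, rose from 431 ± 17.1 to 645 ± 26.4 CPM in Surv-GFP (log2 fold change 0.58 ± 0.06). In SurvNESmut-GFP it fell from 968 ± 2.86 to 602 ± 48.9 CPM (-0.69 ± 0.06), although HIF1A is controlled mainly through protein stability. EPAS1, another HIF subunit, had group means of 20.3 and 21.3 CPM in Surv-GFP (0.07 ± 0.08, edgeR adjusted p = 0.46). In SurvNESmut-GFP EPAS1 rose from 85.4 ± 1.32 to 112 ± 6.23 CPM (0.39 ± 0.06, edgeR adjusted p = 4.7e-05). ATF4, the stress-response factor, rose by 0.85 and 0.52, VHL (which marks HIF subunits for degradation) by 0.60 and 0.49, and ETS1, an endothelial and invasion factor, by 0.80 and 0.29. The list of hypoxia-induced genes excludes the 10 genes described here.

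**Figure D4:**
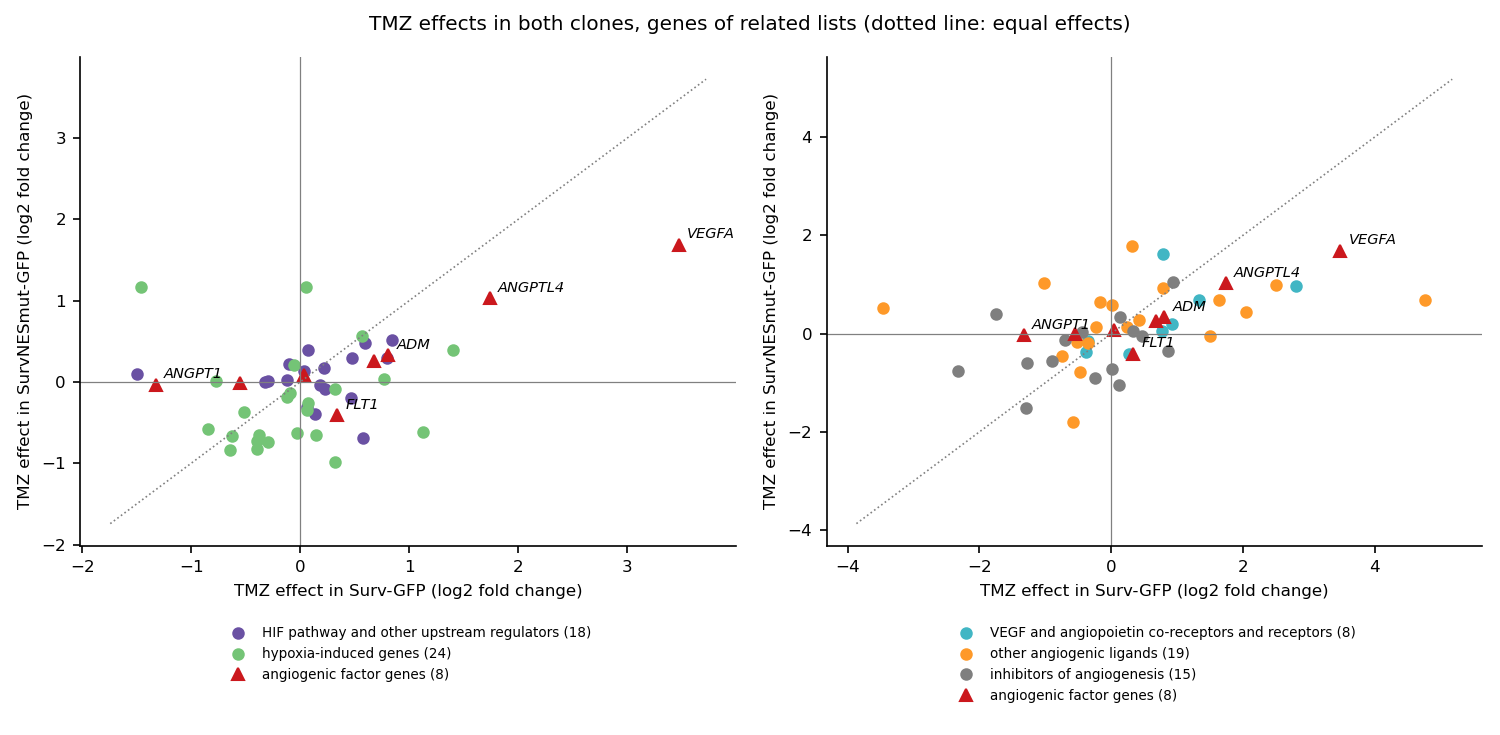
TMZ effect in Surv-GFP (horizontal) against that in SurvNESmut-GFP (vertical), log2 fold change, with a point per tested gene and red triangles for the 8 angiogenic factor genes, beside HIF pathway and hypoxia-induced genes (left) and co-receptors, other angiogenic ligands and inhibitors (right). VEGFA lies at 3.48 and 1.69, beyond the hypoxia-induced genes on both axes, most of which have values below 0 in SurvNESmut-GFP (15 of 24 fell).

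The 5 genes whose log2 CPM followed VEGFA most closely over the 8 libraries were CIC, DAP3, AEN, PPP2CB and SCYL2, with Pearson r from 0.9962 to 0.9982. These 8 points fall in 4 groups, and 279 of 14193 genes had r above 0.95. Of the 5, AEN (apoptosis-enhancing nuclease, a p53 target) had log2 TMZ effects of 2.58 (Surv-GFP) and 1.35 (SurvNESmut-GFP), from 40.0 to 238 CPM in Surv-GFP and from 71.5 to 183 CPM in SurvNESmut-GFP. CIC moved from 128 to 228 CPM and from 161 to 218 CPM in the matching groups.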

How the data were processed

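Total RNA of 2 LN229 clones was sequenced in 8 libraries. The authors deposited a table of raw read counts per gene symbol, with 1 column per library. The submitters' notes name STAR 2.5.0b, Cufflinks 2.2.1 and edgeR without giving roles, and the genome build, annotation, strand and counting program were not given in these sources. Of the reads in the table, 11.2 to 14.3% fell on no feature and 1.19 to 1.28% were ambiguous, and both rows were left out. The table holds counts from plasmid and endogenous BIRC5 together. GENCODE 29 exons on the opposite strand overlap VEGFA (AL136131.3, 188 bases), ANGPT2 (MCPH1, 78 bases) and ANGPTL4 (RAB11B-AS1, 1 base). The 5 tables of the authors' own comparisons (log2 fold change, average log2 CPM, F, p and false discovery rate from edgeR) were not used.

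Groups came from the sample titles. Counts were fitted with edgeR 4.0.16 (R 4.3.3) in 1 model of 4 group means, with TMM scaling (factors 0.978 to 1.02), its default filter on low counts by group, quasi-likelihood F tests and Benjamini-Hochberg adjustment over 14201 genes at 0.05. The SE is the log2 fold change divided by the square root of F. A floor of 3 counts is 0.16 to 0.189 CPM. Values after ± are this SE where they follow a log2 value, and SD over n = 2 libraries where they follow a CPM value. The steps were tested on simulated data. The members and the gene lists were chosen with earlier results of these data known. Named were all 10 members, BIRC5, per list up to 4 tested genes with the smallest p for TMZ in either clone, the highest marker and those at 0, and the 5 genes nearest to VEGFA by Pearson r. FLT4 and TEK were named as receptors, and GFAP, S100B, ESAM, ACTA2, PDGFRB and RGS5 as markers after their values were seen. THBS1, EPAS1, NRP2, ITGAV and ITGB3 were also named from the lists after their values were seen. Alternatives were other scalings, filters and tools, a replicate block, separate fits and leaving out each library. The deviations of a and b correlated between groups at r of -0.067 to 0.083, so the letters were not taken as pairs.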

Additional observations from a re-analysis of the deposited data

Results flagged for a closer look

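The TMZ effect differed between the clones, by the test of the difference itself (edgeR, adjusted p below 0.05 over all tested genes), for 4 of the 8 tested angiogenic factor genes. The log2 difference, SurvNESmut-GFP minus Surv-GFP, was -1.79 for VEGFA, -0.74 for FLT1, -0.48 for ADM and 1.29 for ANGPT1. For ADM the value ranged from -0.65 to -0.33 over the alternative settings, and its call held in 12 of 16 of them. VEGFA rose in both clones, FLT1 rose in Surv-GFP and fell in SurvNESmut-GFP, and ANGPT1 fell in Surv-GFP, with a value of -0.03 in the mutant clone.

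It also differed for 26 of the 31 tested genes named by smallest p from the related lists. Of all tested genes, 16.6% were called with a positive and 20.2% with a negative difference, SurvNESmut-GFP minus Surv-GFP. The 31 were named for a small p of the TMZ effect in either clone, which favours genes whose effects differ. Among ligands and the ADM system the log2 differences were CXCL8 (-4.08), ADM2 (-2.53), JAG1 (-1.50) and PDGFC (-0.96), and on the positive side CALCRL (1.66), RAMP2 (0.81) and ANGPTL2 (0.38). The ADM2 value rests on a low level in untreated Surv-GFP (0.383 CPM). Co-receptors gave SDC4 (-0.74), NRP1 (-0.72), GPC1 (-0.66) and SDC1 (0.84). Regulators and hypoxia-induced genes gave HIF1A (-1.27), PFKFB4 (-1.01), SLC2A1 (-0.73), ETS1 (-0.51), KDM3A (-0.44), ATF4 (-0.33) and LDHA (0.27). Inhibitors gave THBS2 (-1.22), TIMP3 (-0.66), VASH1 (0.67) and VASH2 (1.57), and proteases gave FURIN (-0.64), PLAT (-0.57), ADAMTS3 (-0.43) and MMP2 (0.76). The call for CALCRL was lost without library b of TMZ-exposed Surv-GFP, or without library b of either SurvNESmut-GFP group (adjusted p 0.0503 to 0.0643), that for ANGPTL2 without untreated Surv-GFP library a (adjusted p = 0.0515), and that for ADAMTS3 with DESeq2 (adjusted p = 0.0662). Groups of 2 libraries were not tested for outlying samples.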

How the results depend on the processing

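Across 17 alternatives (16 for the difference between TMZ effects, which needs all 8 libraries, so that a fit of 4 libraries was not run), the 40 values of the tested genes gave 672 comparisons, of which 644 kept their side of the threshold, 17 lost the call, 11 gained it and 0 changed sign while called. The calls of VEGFA in all 5 comparisons held in every alternative, with log2 values of 3.43 to 3.49 for TMZ in Surv-GFP, 1.63 to 1.76 in SurvNESmut-GFP, -1.86 to -1.72 for the difference, 1.32 to 1.41 between untreated clones and -0.51 to -0.38 between TMZ-exposed clones, and those of FLT1 held likewise. With DESeq2, 1 gene in place of 2 was called lower with TMZ in Surv-GFP (PGF lost the call). Leaving out 1 library at a time, the TMZ effect of PGF in Surv-GFP was -0.48 without untreated library a and -0.33 without TMZ library a. ANGPT1 between untreated clones was -0.32 without untreated Surv-GFP library b. The difference between the TMZ effects of PGF was 0.82 without TMZ-exposed Surv-GFP library b, beside 0.54 with all libraries. It was positive because PGF fell in Surv-GFP, with a log2 value of -0.02 in SurvNESmut-GFP over all libraries. The call of VEGFC for TMZ in SurvNESmut-GFP was made in 7 of 17 alternatives, and ADM between TMZ-exposed clones went from 0.51 to 0.31 without TMZ-exposed SurvNESmut-GFP library a. With a replicate block, 5 genes were higher and 2 lower for TMZ in Surv-GFP and 3 and 1 in SurvNESmut-GFP, and the counts for the other 3 comparisons did not move either. Another scaling moved the median of all genes by at most 0.06 on the log2 scale. Depth limits KDR and ANGPT2, which hold 10 and 2 counts over all libraries, and 2 libraries per group limit PGF, VEGFC and ADM.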

Other observations

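Of 19 other angiogenic ligands tested, 6 rose and 6 fell with TMZ in Surv-GFP and 9 rose and 4 fell in SurvNESmut-GFP, with a median log2 fold change of 0.02 and 0.45. In Surv-GFP this is 31.6% each way, near the 30.1% and 28.9% of all tested genes, and in SurvNESmut-GFP 47.4% and 21.1%, beside 18.6% and 19.1%. CXCL8 (interleukin 8, a chemokine that attracts neutrophils) rose from 10.8 ± 1.68 to 296 ± 13.4 CPM in Surv-GFP and from 56.9 ± 2.30 to 91.4 ± 7.28 CPM in SurvNESmut-GFP (SD, n = 2). JAG1, a Notch ligand, rose by 2.50 ± 0.10 and 0.996 ± 0.10 on the log2 scale, and PDGFC, a ligand of the platelet-derived growth factor receptor, by 1.64 ± 0.05 and 0.68 ± 0.05. FGF2 (basic fibroblast growth factor) rose by 0.79 ± 0.06 and 0.92 ± 0.06, and its difference of 0.13 ± 0.08 between the clones did not pass (edgeR adjusted p = 0.26).

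In a list drawn up as inhibitors of angiogenesis, 3 of 15 tested genes were higher and 6 lower in Surv-GFP, and 1 higher and 7 lower in SurvNESmut-GFP. Of all tested genes, 30.1% were higher and 28.9% lower in Surv-GFP, and 18.6% and 19.1% in SurvNESmut-GFP. The lower ones include VASH2 in both clones. VASH1 (vasohibin, a feedback inhibitor) fell by -1.27 ± 0.09 and -0.60 ± 0.11, and VASH2, its paralogue, which is known to promote vessel growth although it stood in this list, by -2.32 ± 0.20 and -0.75 ± 0.15. TIMP3, which also blocks VEGFA at KDR, fell by -0.24 ± 0.06 and -0.90 ± 0.06, the first lost without untreated Surv-GFP library b (-0.17, edgeR adjusted p = 0.076). THBS2 (thrombospondin) rose by 0.87 ± 0.05 in Surv-GFP and fell by -0.35 ± 0.05 in SurvNESmut-GFP. THBS1, a further thrombospondin, rose in SurvNESmut-GFP from 1958 ± 50.1 to 2471 ± 365 CPM (log2 fold change 0.34 ± 0.07, edgeR adjusted p = 0.002). In Surv-GFP its group means were 136 and 148 CPM (0.13 ± 0.08, edgeR adjusted p = 0.18).

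Proteases that process VEGFC or free VEGFA from the matrix gave 4 higher and 1 lower of 9 tested in Surv-GFP, and 3 and 3 in SurvNESmut-GFP. Of all tested genes, 30.1% were higher and 28.9% lower in Surv-GFP, and 18.6% and 19.1% in SurvNESmut-GFP. FURIN, which cleaves VEGFC, rose by 0.28 ± 0.05 in Surv-GFP and fell by -0.36 ± 0.05 in SurvNESmut-GFP. PLAT (tissue plasminogen activator) rose by 0.68 ± 0.05 in Surv-GFP, with 0.11 ± 0.05 in SurvNESmut-GFP (edgeR adjusted p = 0.063; 0.0193 when scaled by library size alone). MMP2 (a gelatinase) fell by -0.58 ± 0.07 in Surv-GFP and rose by 0.18 ± 0.07 in SurvNESmut-GFP, a call lost in 6 alternatives. ADAMTS3, which activates VEGFC, had -0.06 ± 0.09 in Surv-GFP and fell by -0.49 ± 0.08 in SurvNESmut-GFP.

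Of the other cell type markers, the summed level of the 5 macrophage markers was 12.0 to 12.2 CPM in untreated and 17.3 to 19.4 CPM in TMZ-exposed Surv-GFP, and 15.8 to 16.3 and 19.6 to 21.9 CPM in SurvNESmut-GFP. CD68, which many cells with lysosomes express, made up most of it (11.9 to 21.4 CPM), and AIF1 was at 0 in every library. The 5 mural markers summed to 585 to 671 CPM in untreated and 530 to 601 CPM in TMZ-exposed Surv-GFP. In SurvNESmut-GFP they summed to 790 to 864 CPM without and 267 to 417 CPM with TMZ. CSPG4, which glioma cells also express, led the sum. Of the 4 mural markers tested, 1 was called higher and 2 lower with TMZ in each clone. Of all tested genes, 30.1% were higher and 28.9% lower in Surv-GFP, and 18.6% and 19.1% in SurvNESmut-GFP. Group means of ACTA2 were higher with TMZ, at 96.0 against 18.3 CPM in Surv-GFP and 60.1 against 20.2 CPM in SurvNESmut-GFP. Those of CSPG4 were lower, at 458 against 592 and 271 against 788 CPM. PDGFRB was lower too, at 7.22 against 12.8 and 7.22 against 14.6 CPM. RGS5 stood at 4.52 against 4.51 and 3.98 against 3.74 CPM. The part of these markers in the results was not tested.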
